A study of Rattus norvegicus with 10 samples.

Results

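Skeletal muscle taken 48 h after death still held the messages of a fast muscle, and the account covers that remaining RNA in 5 rats. Its members are the 5 arrays labelled 48h, R1T48h to R5T48h, out of 10 arrays in the series, and the gene probe sets on them, which are 23188 of the 24834 probe sets in the table once 1646 controls are set aside. All animals of the series were wild-type male Wistar rats weighing under 200 g, killed by cervical dislocation. The bodies of the 5 rats described here were kept at 25 °C for 48 h before femoral muscle was taken, and each rat gave 1 array, so the 5 arrays are separate animals and are called rats 1 to 5. The other 5 rats, sampled at 0 h, are different animals, and no comparison with them is made. RNA amounts were read on the Clariom S Rat array after amplification from the 3′ end of polyadenylated RNA, and the values are log2 signals that the authors normalized with RMA, so 1 unit is a factor of 2.

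After death a muscle loses its blood supply and oxygen, ATP runs out, the fibres stiffen and later soften, and RNA is cut by ribonucleases of the tissue and, as decomposition goes on, of bacteria. Skeletal muscle is made mostly of long multinucleate fibres, whose RNA is dominated by messages for the contractile apparatus, calcium handling and energy supply, and fast fibres rely on glycolysis while slow fibres rely on mitochondria. Between the fibres lie capillaries with their red cells, vessel walls, fibroblasts, nerve endings, satellite cells (the stem cells of muscle) and a few immune cells, and each of these brings its own messages. In such bulk tissue, fewer cells of a type and less RNA in each of them cannot be told apart.

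Each array carries 23 background probe sets, designed to bind no transcript of the rat, and each holds probes with a given number of G or C among their 25 bases. Their median was 3.82 in rat 1, 3.63 in rat 2, 3.65 in rat 3, 3.80 in rat 4 and 3.54 in rat 5 (mean 3.69 ± 0.12, SD, n = 5). Background was far from flat. The probe set with 3 GC bases lay between 2.55 and 2.94 on the 5 arrays and the one with 25 GC bases between 8.40 and 9.47, so the rise from GC-poor to GC-rich averaged 6.32 log2 units. Rat 1 was highest in 11 of the 23 GC groups and rat 4 in 10, while rats 2 and 5 were each lowest in 11. A level between 5 and 9 can therefore be background for a GC-rich probe, and signals of different genes are ordered here as signals and not as amounts of RNA.

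**Figure D1:**
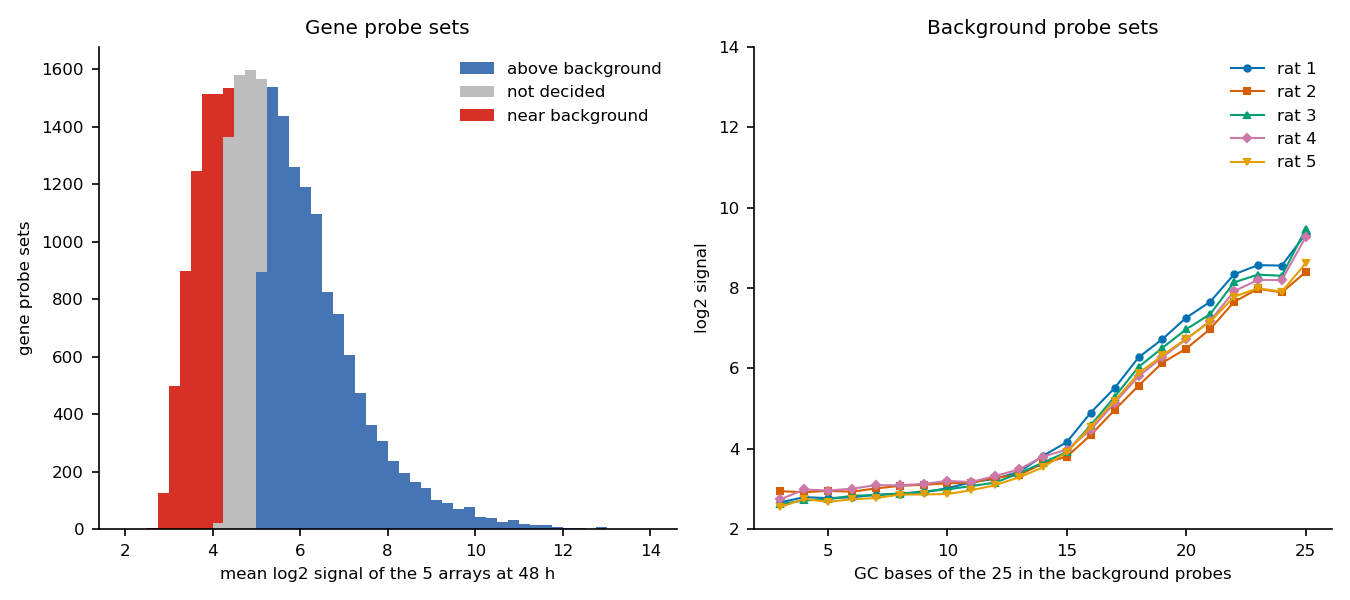
Left, number of gene probe sets by mean log2 signal of the 5 arrays at 48 h, coloured by the call against the background line; right, log2 signal of the 23 background probe sets (vertical axis) by the number of GC bases of 25 (horizontal axis), 1 line per rat. The background rises from under 3 to above 8 with GC content on each array, and the arrays of rats 2 and 5 lie lowest at the GC-rich end.

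A probe set was called above background when limma placed it over a line at 2 times the array's background median, near background when it lay under that line, each at an adjusted p under 0.05 (Benjamini-Hochberg over all 23188), and not decided otherwise. By this rule 12014 probe sets (51.8%) were above background, 5940 (25.6%) were near it and 5234 (22.6%) were not decided. The median level was 6.18 in the first class and 3.79 in the second. On single arrays between 59.2% (rat 1) and 66.9% (rat 5) of probe sets exceeded the line. The counts depend on the line: a fold of 4 leaves 6363 above background, and the background probe set with 16 GC bases, a choice made after seeing the data, leaves 6824. Named genes of the classes also differed in the GC content of their promoters (median 60.7% above and 49.0% near background, with a promoter matched for 82.9% and 83.4% of named probe sets).

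The label was checked against markers. All 10 genes that define skeletal muscle here (Acta1, Ckm, Mb, Tnnt3, Tnnc2, Myl11, Myh4, Pvalb, Atp2a1 and Casq1) were above background, with means from 8.31 for Mb, the oxygen store myoglobin, to 13.52 for Atp2a1. Signals of the 5 arrays correlated with r between 0.901 and 0.940 across probe sets, which are not independent replicates. Rat 4 had the narrowest range of the arrays: its lower quartile was 4.28, against 4.20 to 4.22 in the other rats, and its 99th percentile was 9.82, against 9.96 to 10.02.

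The strongest signals at 48 h came from the calcium and contractile machinery of fast fibres, from the mitochondrial chromosome, from globins and from ribosomal proteins. Of the 100 highest probe sets, 11 were fast-fibre genes, 9 lay on the mitochondrial chromosome, 9 were cytosolic ribosomal proteins, 6 were globins and 4 each belonged to glycolysis and to excitation-contraction coupling, while 34 of the 100 have no name in the tables used. The lowest mean among the 100 was 10.79.

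Atp2a1, the calcium pump of the fast-fibre reticulum, had the highest signal of all, with 13.45, 13.51, 13.63, 13.51 and 13.50 in rats 1 to 5. Casq1, which stores calcium inside the same reticulum, averaged 12.90 ± 0.10 and Hrc, a further calcium-binding protein of the reticulum, 12.72 ± 0.06 (SD, n = 5). The highest and lowest arrays differed by 0.177 log2 units for Atp2a1, 0.213 for Casq1 and 0.135 for Hrc. Acta1, the actin of the thin filament, averaged 12.83 ± 0.16.

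Other filament genes of fast fibres varied more between the rats. Myl1, a light chain of fast myosin, had 12.50, 11.79, 12.52, 12.33 and 12.28 in rats 1 to 5. Tnnt3, the fast troponin T, had 12.00, 10.96, 12.04, 11.77 and 11.84. Myh4, the heavy chain of the fastest fibres, had 12.51, 10.33, 12.39, 12.03 and 11.32, a 4.53-fold span between rat 1 and rat 2. In all 3 genes rat 2 was lowest and rats 1 and 3 were highest. All 16 measured fast-fibre genes were above background, with a median level of 11.72, against 51.8% and 5.18 for all probe sets.

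**Figure D2:**
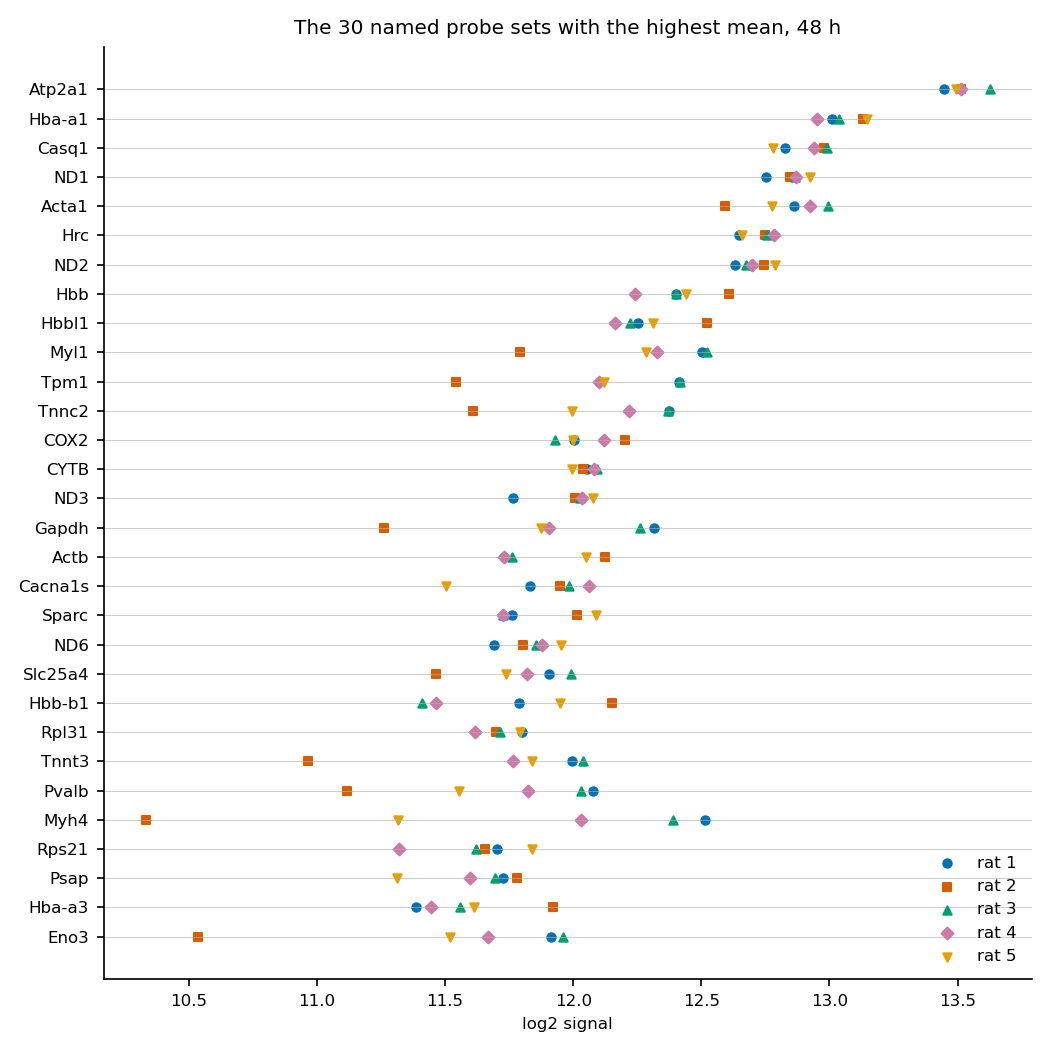
Log2 signal (horizontal axis) of the 30 named probe sets with the highest mean at 48 h, 1 point per rat. Points of Atp2a1, CYTB and ND1 nearly coincide, whereas rat 2 lies left of the other rats in Myl1, Tnnc2, Gapdh, Tnnt3, Pvalb, Myh4 and Eno3.

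The mitochondrial chromosome gave the smallest median SD of the 48 gene lists. Its 10 probe sets were all above background, with a median level of 12.38 and a median SD of 0.065, against 0.371 for all probe sets. Names and rn6 positions on chromosome M come from the study's annotation and cover 7 of them. ND1 (2740 to 3694), a subunit of complex I, averaged 12.85 ± 0.06, and ND2 (3904 to 4942) 12.71 ± 0.06. CYTB (14136 to 15278), the cytochrome b of complex III, had 12.05, 12.04, 12.09, 12.08 and 11.99 in rats 1 to 5, a 1.07-fold span. COX2 (7006 to 7689) averaged 12.05 ± 0.11, ND3 (9451 to 9798) 11.98 ± 0.12 and ND6 (13543 to 14061), the subunit read from the other strand, 11.84 ± 0.10. A single probe set spans ATP6, ATP8 and COX3 (7758 to 9382) and averaged 10.64 ± 0.12. Rat 5 was highest in 6 of the 10 and rat 1 lowest in 4, where they were highest in 20.1% and lowest in 19.5% of all probe sets. The median SD of all 20 probe sets above a level of 12 was 0.08, but these include mitochondrial ones such as ND1, ND2, COX2 and CYTB. The part of signal level in the evenness of the mitochondrial group was not tested.

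Globin messages, which reach muscle in reticulocytes and red cells, were among the brightest signals. Hba-a1, an alpha chain, had 13.01, 13.13, 13.04, 12.95 and 13.15 in rats 1 to 5, and Hbb, a beta chain, had 12.40, 12.61, 12.40, 12.24 and 12.44. Hbb-b1 was less even, with 11.79, 12.15, 11.41, 11.46 and 11.95. Rat 2 was highest in 5 of the 10 measured globins, where it was highest in 22.4% of all probe sets, and near-identical globin copies can share probes. The 2 near background were Hbe1 and Hbg1, embryonic or fetal type genes, named after their values were seen. Of 21 other erythroid genes 10 (47.6%) were above background, near the 51.8% of all probe sets, and Alas2, the red cell enzyme that starts heme synthesis, averaged 7.58 ± 0.34.

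Messages for making protein were detected as a complete group. All 68 measured cytosolic ribosomal protein genes were above background, with levels from 7.30 to 11.72 and a median of 9.75, and so were all 34 translation factors (median 7.08). Of all probe sets 51.8% were above background, with a median level of 5.18. Rpl31 averaged 11.72 ± 0.07, Rplp1 11.50 ± 0.16 and Rpl37a 11.48 ± 0.21. Rps28 had 10.35, 10.31, 10.39, 10.29 and 10.35 in rats 1 to 5, a 1.07-fold span. Rpl35 (SD 0.05) and Rpl4 (SD 0.07) were nearly as even, and 5 of the 12 named probe sets with the smallest SD among those averaging at least 8 were ribosomal proteins. These were picked for their small SD. The whole ribosomal list had a median SD of 0.214 and a highest of 0.79. The median SD of all probe sets at levels of 9 to 10 was 0.282.

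Most energy genes of the nucleus were above background. This held for all 70 measured nuclear genes of oxidative phosphorylation (median level 8.32) and 24 of 27 genes of the tricarboxylic acid cycle and pyruvate entry. Of genes of glycolysis and glycogen use, 28 of 32 were above. Over all probe sets the share was 51.8% and the median level 5.18. Gapdh, a central glycolytic enzyme, had 12.32, 11.26, 12.26, 11.91 and 11.87 in rats 1 to 5. Eno3, the enolase of muscle, averaged 11.52 ± 0.58, Pygm, the muscle phosphorylase that opens glycogen, 11.42 ± 0.58, and Pgam2 11.21 ± 0.48. Slc25a4, the main carrier of ADP and ATP across the inner mitochondrial membrane in muscle, averaged 11.78 ± 0.20.

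Vessel and connective tissue genes were detected nearly in full. All 19 vascular smooth muscle and pericyte markers, 26 of 27 endothelial markers and 26 of 27 fibroblast and matrix genes were above background. The share over all probe sets was 51.8%. Cdh5, the cadherin that joins endothelial cells, averaged 10.70 ± 0.40, Aqp1, the water channel of capillaries and red cells, 10.18 ± 0.38, Mcam 10.48 ± 0.19 and Acta2, the actin of smooth muscle, 9.50 ± 0.25. Sparc, a matrix protein, averaged 11.86 ± 0.17, Dcn, a small proteoglycan, 10.50 ± 0.12, and the collagens Col1a2 and Col1a1 10.05 ± 0.14 and 9.83 ± 0.24. Immediate early genes, transcribed within minutes of stress in living cells, were above background in 25 of 30 cases (51.8% of all probe sets). Ccn1 at 10.88 ± 0.38 and Egr1 at 10.71 ± 0.31 were highest.

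Slow-fibre genes were detected less completely. Of 13 measured genes 10 (76.9%) were above background, against 51.8% of all probe sets, with a median level of 6.14. Myl2, the slow and cardiac light chain, had 7.86, 7.17, 7.87, 8.44 and 8.21 in rats 1 to 5, and Atp2a2, the calcium pump of slow fibres, averaged 7.79 ± 0.27. Myh7, the slow myosin heavy chain, averaged 3.85 ± 0.35 and was near background. It is named after its value was seen, because it defines the slow fibre type. Stress, turnover and nerve contact lists also held more members above background than the 51.8% of all probe sets, with 22 of 23 heat shock and chaperone genes, 36 of 37 proteasome subunits, 34 of 38 lysosome and antioxidant genes, 19 of 20 neuromuscular junction genes, 16 of 19 hypoxia genes and 14 of 20 satellite cell and myogenic genes. Psap, the precursor of lysosomal activator proteins, averaged 11.62 ± 0.19, Hspa8, a constant chaperone, 10.17 ± 0.24, and Epas1, a hypoxia factor of vessels, 10.16 ± 0.31. Ache, which clears acetylcholine from the synapse, had 9.30, 10.24, 10.33, 10.07 and 9.38 in rats 1 to 5, and Mef2a, a muscle transcription factor, averaged 9.28 ± 0.34. The genes the study took to RT-qPCR ran from the brightest signals down to about the median level of all probe sets (5.18). Hba-a1, Gapdh, Aqp1, Ablim3 (9.95 ± 0.16), Myh1 (7.41 ± 0.75) and Mlf1 (6.21 ± 0.75) were above background, and Coq8a, a kinase-like protein of coenzyme Q synthesis, averaged 5.15 ± 0.81 and was not decided (limma, adjusted p = 0.0627).

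**Figure D3:**
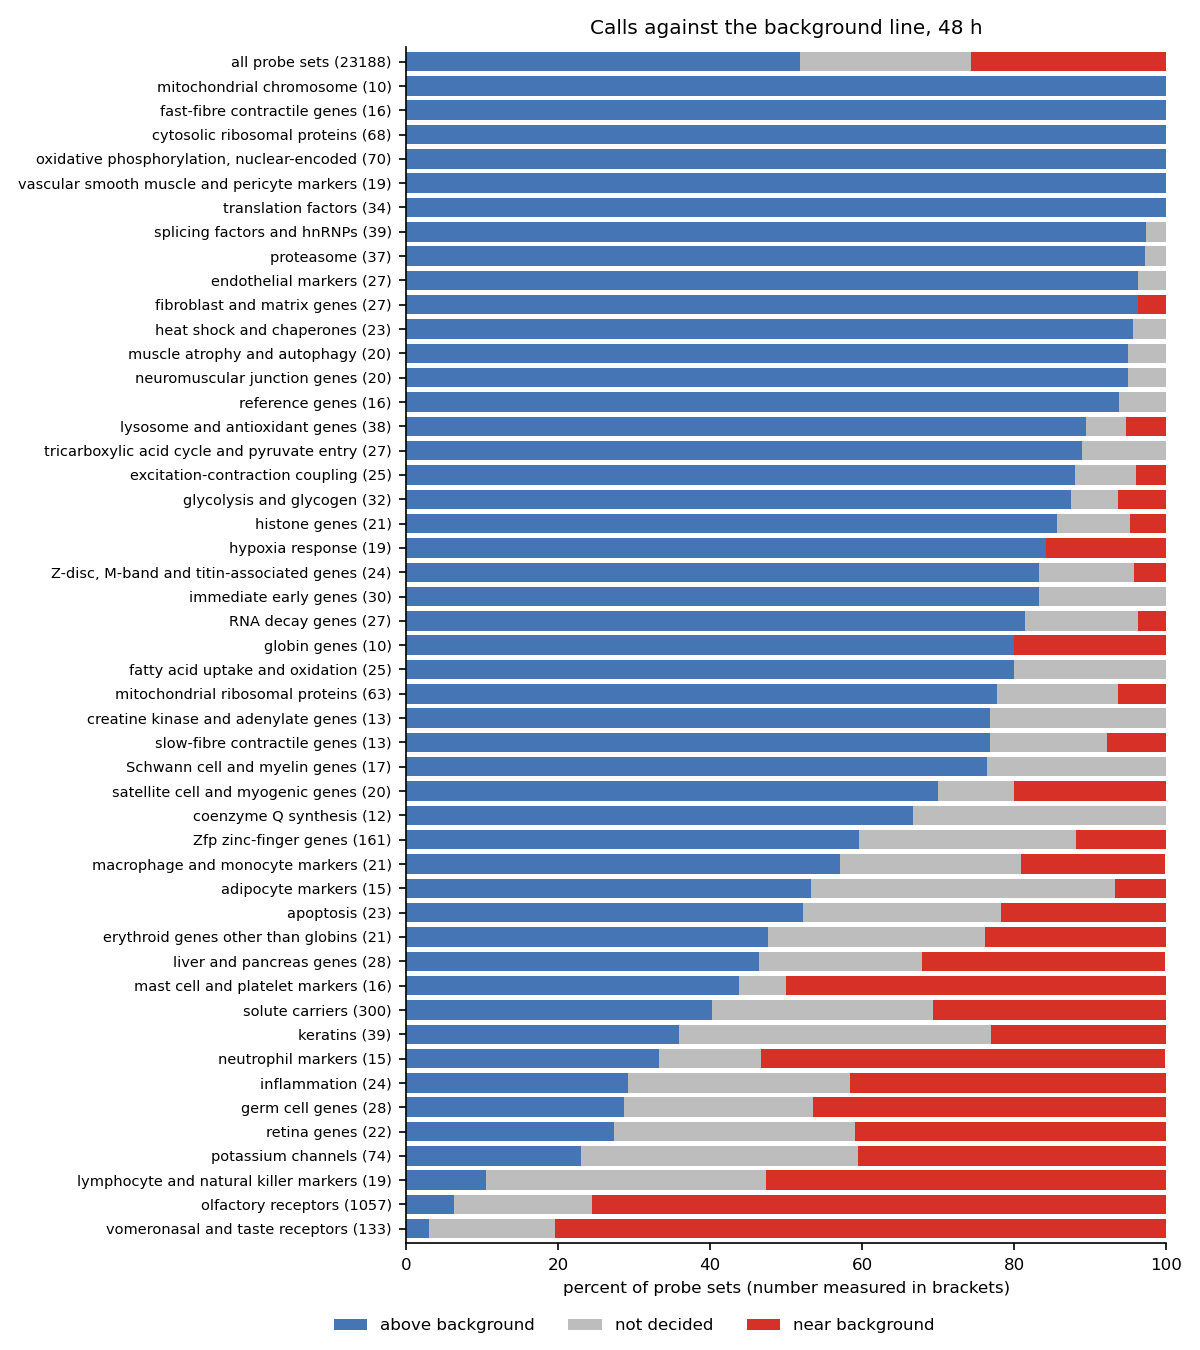
Percent of measured probe sets above background, not decided and near background for each of 48 gene lists and for all probe sets (top bar), at 48 h. Mitochondrial, fast-fibre, ribosomal, oxidative phosphorylation, smooth muscle and translation lists are entirely above background, and olfactory, vomeronasal and taste receptors are mostly near it.

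Receptor genes of other tissues and markers of lymphocytes and neutrophils often lay near background. Of 1057 olfactory receptors 798 (75.5%) were near background and 66 (6.24%) above it, and of 133 vomeronasal and taste receptors 107 (80.5%) were near and 4 above, against 25.6% near and 51.8% above for all probe sets. Lymphocyte and natural killer markers were near background in 10 of 19 cases and above it in 2, Cd247 (5.78 ± 0.33) and Cd4, whose adjusted p was 0.0279 by limma. Neutrophil markers were near background in 8 of 15 cases. Among 24 inflammatory genes 10 were near background, including the cytokines Il6 (3.83 ± 0.52), Il1b (3.60 ± 0.46) and Il10 (3.47 ± 0.33) and Ptgs2 (3.39 ± 0.40), chosen after their values were seen, and 7 were above, led by Lcn2 (7.49 ± 0.84), a neutrophil and acute phase protein. Without rat 5, 4 inflammatory genes were above. Of lymphocyte markers, 1 was above without rat 1, rat 4 or rat 5. Macrophage markers differed from these, with 12 of 21 (57.1%) above background and 4 (19.0%) near it. The shares of all probe sets were 51.8% and 25.6%. Cx3cr1 was the highest macrophage marker at 8.08 ± 0.25. Of 16 mast cell and platelet markers 7 were above background and 8 near it, with a median level of 4.55. The platelet chemokine Pf4 was the highest of them and averaged 7.97 ± 0.22.

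Some genes of other tissues also passed the line. Of 28 liver and pancreas genes 13 (46.4%) were above it, near the 51.8% of all probe sets, with Sst (6.54 ± 0.33) and Ins2 (6.39 ± 0.39) highest. Of 28 germ cell genes 8 (28.6%) were, under that share, with Prm3 at 8.03 ± 0.33 and Prm1 at 7.75 ± 0.17. With the line at a fold of 4, 6363 of all 23188 probe sets stayed above. They held 3 liver and pancreas genes, 4 germ cell genes and 11 olfactory receptors. All 68 ribosomal and 16 fast-fibre genes and 64 of 70 oxidative phosphorylation genes also stayed above. Endothelial markers fell from 26 to 21 of 27, immediate early genes from 25 to 15 of 30 and inflammatory genes from 7 to 3 of 24. Levels up to 8.03 thus fall in a range that genes foreign to muscle also reached on these arrays.

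Spread between the 5 arrays was moderate for most genes. With 1 array per rat, differences between animals cannot be told apart from differences in RNA quality, amplification or hybridisation. The study left out its gel check of RNA integrity at 48 h. The median SD was 0.371, with 0.396 at levels of 4 to 5, 0.204 at 10 to 11 and 0.08 above 12. Against that background some fibre genes varied widely. Ckmt2, the creatine kinase of muscle mitochondria, had the largest SD of all named genes, with 7.86, 4.12, 7.25, 6.56 and 6.03 in rats 1 to 5, a 13.4-fold span. Ampd1, the AMP deaminase of muscle, had 10.26, 7.40, 9.93, 8.91 and 8.31, a 7.26-fold span. Des, the intermediate filament desmin, had 9.38, 6.74, 9.33, 8.47 and 7.54. The 3 genes gave the same order at the top and bottom, rat 1 highest and rat 2 lowest. Myom2, which links myosin filaments at the M-band, had 8.65, 5.76, 7.90, 7.29 and 6.35, and Pfkm, the muscle phosphofructokinase, 8.12, 5.73, 8.08, 7.10 and 5.84. Smyd1, a muscle methyltransferase, had 8.07, 5.76, 7.41, 6.94 and 5.48, and was lowest in rat 5, with rat 2 next.

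Principal components separated the variation by rat. After removal of each probe set's mean, the first component held 32.6% of the variance, with scores of 0.14, 0.48, -0.02, -0.83 and 0.24 in rats 1 to 5, and so set rat 4 apart. The second held 27.4%, with scores of 0.52, -0.73, 0.28, -0.28 and 0.21, which opposed rats 2 and 4 to rats 1, 3 and 5, with rat 2 farthest out. The remaining 2 held 20.4% and 19.7%. With 5 arrays only 4 components exist. The variance was spread over all of them, and no single component carried most of it.

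The named genes with the largest weight on the second component were Ckmt2, Zcrb1, Myf6, Ampd1, Tmod4 and Pde4dip, 6 genes highest in rat 1 or 3 and lowest in rat 2. Tmod4, which caps thin filaments, had 9.63, 7.16, 9.68, 8.51 and 8.82 in rats 1 to 5. Myf6, a myogenic transcription factor of adult fibres, had 6.20, 3.43, 5.77, 4.93 and 4.89 and was not decided against background. Zcrb1, an RNA-binding protein of the minor spliceosome, had 7.01, 3.78, 6.52, 5.95 and 6.91. Muscle genes are commonly switched on by factors of the MyoD family, which bind the E-box CANNTG, and by MEF2 factors, which bind an AT-rich motif. The promoters of 3 of these muscle genes are shown because they rank among the genes that varied together most. Each runs from 250 bases before to 50 bases after the start and comes from RefSeq, build GRCr8. Capitals mark E-boxes and matches to the MEF2 motif on either strand.
Ckmt2, chr2:24845462-24845761, minus strand: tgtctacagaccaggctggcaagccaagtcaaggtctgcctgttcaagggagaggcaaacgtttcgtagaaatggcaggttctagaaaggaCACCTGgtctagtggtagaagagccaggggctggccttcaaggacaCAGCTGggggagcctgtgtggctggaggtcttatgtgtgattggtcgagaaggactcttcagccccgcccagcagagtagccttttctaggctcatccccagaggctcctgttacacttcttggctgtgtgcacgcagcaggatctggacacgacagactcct
Ampd1, chr2:193287082-193287381, plus strand: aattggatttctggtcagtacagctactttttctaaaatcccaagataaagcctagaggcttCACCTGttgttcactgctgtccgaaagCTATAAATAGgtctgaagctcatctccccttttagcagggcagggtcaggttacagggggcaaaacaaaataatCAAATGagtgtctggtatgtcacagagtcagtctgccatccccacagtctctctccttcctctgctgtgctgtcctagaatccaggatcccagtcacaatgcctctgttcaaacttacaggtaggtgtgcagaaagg
Myf6, chr7:44701264-44701563, minus strand: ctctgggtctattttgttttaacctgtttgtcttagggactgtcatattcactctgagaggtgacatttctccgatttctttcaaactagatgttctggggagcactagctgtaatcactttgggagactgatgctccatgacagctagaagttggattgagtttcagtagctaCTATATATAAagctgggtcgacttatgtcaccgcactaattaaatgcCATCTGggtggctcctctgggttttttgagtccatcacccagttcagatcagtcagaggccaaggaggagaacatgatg
Among the promoters of Ckmt2, Zcrb1, Myf6, Ampd1 and Pde4dip, an E-box was found in 4 of 5 and a MEF2 match in 2 of 5, Ampd1 and Myf6, whose MEF2 match overlaps a TATAAA in each. All 27457 promoters of that length held an E-box in 71.6% of cases and a MEF2 match in 3.37%. The Zcrb1 promoter held neither. A match describes letters only, and the motifs were not set against the spread by any test.

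The low values of rat 2 ran through the lists for fibre genes. Rat 2 was lowest in 13 of 16 fast-fibre genes, 23 of 32 genes of glycolysis and glycogen and 14 of 24 Z-disc and M-band genes. It was also lowest in 37 of 70 oxidative phosphorylation genes and 7 of 13 creatine kinase and adenylate genes, a list that also holds Mb. Over all probe sets rat 2 was lowest in 20.9%. Rat 1 was highest in 41 of 70 oxidative phosphorylation genes and 12 of 24 Z-disc genes (18.5% of all probe sets), and rats 1 and 3 were each highest in 8 of 16 fast-fibre genes (18.5% and 17.3% of all). Counting both ends, 13 of 16 fast-fibre and 20 of 32 glycolytic genes were lowest in rat 2 and highest in rat 1 or 3, against 10.3% of all probe sets. The median fast-fibre gene deviated from its own mean by 0.34 in rat 1, -0.76 in rat 2, 0.30 in rat 3, 0.10 in rat 4 and -0.12 in rat 5. Slow-fibre genes had a median deviation of 0.18 in rat 2, and rat 2 was lowest in 3 of the 13.

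Some of the brightest fibre genes were exceptions. Atp2a1 and Casq1 had 13.51 and 12.98 in rat 2, within the range of the other rats, and Hrc had 12.75. Among genes of excitation-contraction coupling rat 2 was lowest in 8 of 25, including Jph1 and Jph2, which hold the reticulum to the surface membrane, and Stac3, all 3 chosen after their values were seen. The GC-rich background ran in the same order. From 15 to 25 GC bases rat 2 was lowest in every group, rat 1 was highest from 14 to 24 and rat 3 came next from 16 to 24 and was highest at 25. With 20 GC bases the signal was 7.26 in rat 1, 6.49 in rat 2, 6.98 in rat 3, 6.73 in rat 4 and 6.74 in rat 5. The part of this background in the fibre values was not tested.

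**Figure D4:**
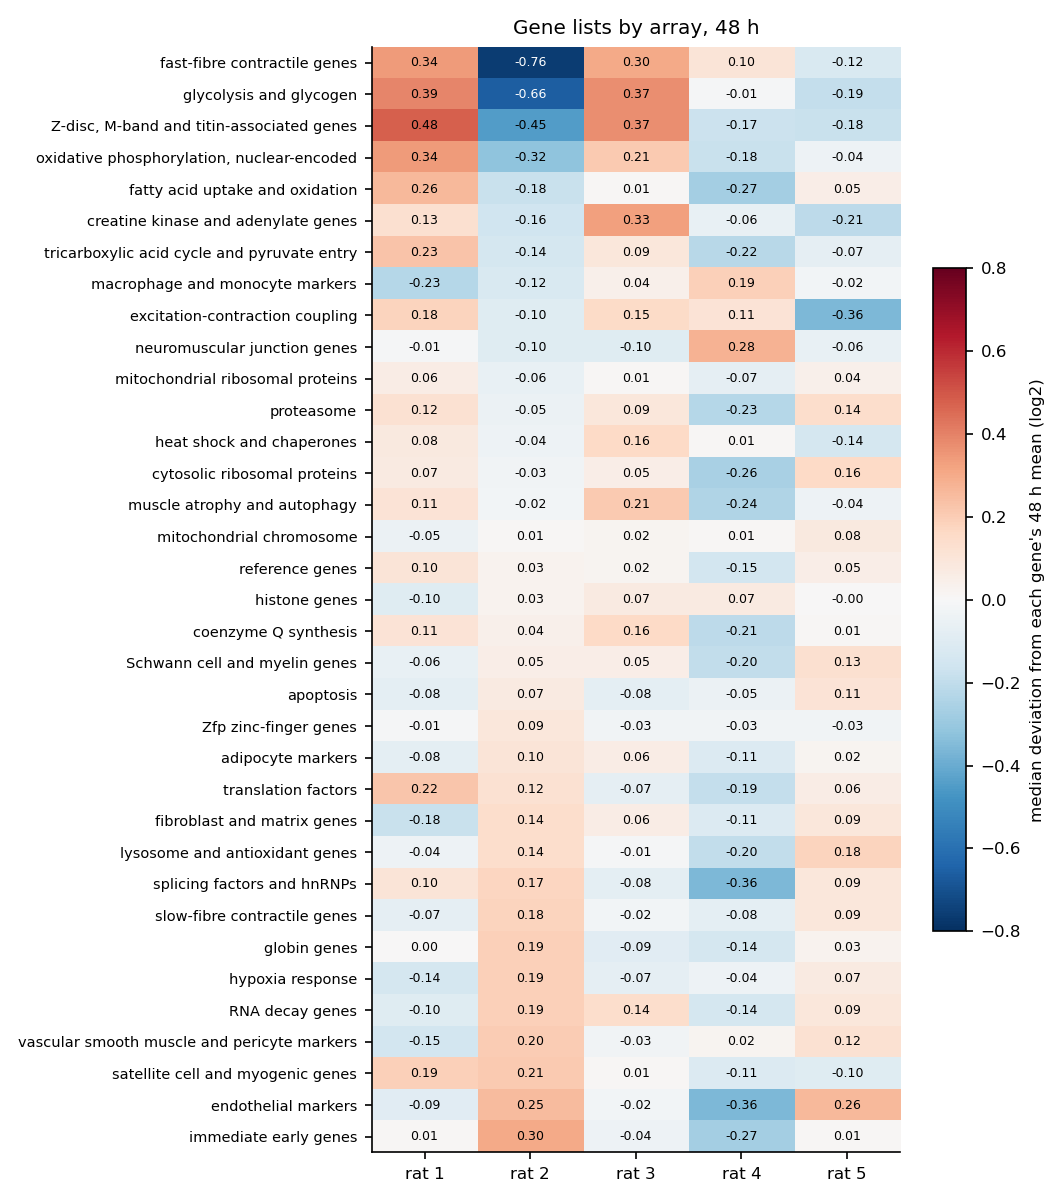
Median deviation of each gene list from its genes' own 48 h means (log2, colour and number), by rat, for the lists with at least 50 percent of probe sets above background, ordered by the value in rat 2. Fast-fibre, glycolytic, Z-disc and oxidative phosphorylation lists are low in rat 2 and high in rats 1 and 3, and endothelial, splicing and ribosomal lists are lowest in rat 4.

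Lists of vessel, blood and early response genes were raised in rat 2, as were some lists of other kinds. Satellite cell and myogenic genes deviated there by 0.21, and hypoxia and RNA decay genes by 0.19 each. The endothelial list deviated in rat 2 by 0.25, immediate early genes by 0.30, smooth muscle and pericyte markers by 0.20 and globins by 0.19. They did not mirror the fibre genes in the other rats. Endothelial and immediate early lists deviated by -0.09 and 0.01 in rat 1 and by -0.02 and -0.04 in rat 3. Their lowest deviations, -0.36 and -0.27, were in rat 4. Rat 2 was highest in 18 of 30 immediate early genes and 12 of 27 endothelial markers (22.4% of all probe sets), and rat 5 was highest in another 11 endothelial markers (20.1% of all). Egr1, a zinc finger factor of the early response, had 10.38, 11.21, 10.55, 10.68 and 10.74 in rats 1 to 5, and Dusp1, a MAP kinase phosphatase, had 9.71, 10.38, 9.59, 9.66 and 10.06. Cdh5 had 10.46, 11.04, 10.45, 10.34 and 11.23, and Aqp1 had 10.07, 10.62, 9.74, 9.96 and 10.51. Rats 2 and 5 were the upper pair in all 4 genes, but this did not hold for the whole lists. In rat 5 the endothelial list deviated by 0.26, immediate early genes by 0.01 and globins by 0.03. Rat 5 was highest in 3 of 30 immediate early genes (20.1% of all probe sets). Since RMA gives the arrays a common distribution, a lower share of fibre messages and a higher share of vessel or other messages on an array cannot be told apart.

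Rat 4 stood apart in another way. It was lowest in 49 of 68 cytosolic ribosomal protein genes, 22 of 39 splicing factors and hnRNPs, 15 of 27 endothelial markers and 18 of 38 lysosome and antioxidant genes, against 24.7% of all probe sets. The share grew with level up to 11: rat 4 was lowest in 15.2% of probe sets with a mean under 4, in 39.3% at 7 to 8, in 42.2% at 8 to 9, in 46.8% at 9 to 10, in 53.7% at 10 to 11 and in 35.0% of those above 12. Lysosome genes, at 47.4% with a median level of 7.58, and endothelial markers, at 55.6% with 8.11, lay nearer to the share at their own level than ribosomal genes, at 72.1% with 9.75. Among probe sets near background it was highest in 28.8%. After cyclic loess over the 5 arrays, an alternative for these counts chosen after seeing the data, 29 of 68 ribosomal genes and 9 of 27 endothelial markers were lowest in rat 4, beside 22.9% of all probe sets. Lowest in rat 4 and highest in rat 2 or 5 were 14 of 27 endothelial and 33 of 68 ribosomal genes as deposited, against 14.2% of all probe sets. The shifts were small for ribosomal genes, with a list median of -0.26 in rat 4 and 0.16 in rat 5. The narrower range of this array moved with them, and its part in them was not tested.

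Single genes lay further below the other rats in rat 4. Sh3bgrl3, a small protein related to glutaredoxins, had 7.55, 7.62, 7.36, 5.41 and 8.33 in rats 1 to 5. Tfg, a protein of traffic out of the endoplasmic reticulum, had 8.93, 9.18, 8.67, 6.87 and 9.25, and Oxa1l, an inserter of proteins into the inner mitochondrial membrane, had 8.46, 8.0, 7.51, 5.84 and 7.78. Rap2c, a small GTPase, had 3.62 in rat 4 and between 5.32 and 6.41 in the others. In the opposite direction Piwil4, a germ cell protein, had 2.77, 3.03, 2.83, 4.90 and 2.78. Testin (5.67) and Pcdhb21 (4.94) were likewise highest in rat 4, where the other rats lay at 3.29 to 3.91 and 2.84 to 3.21. These genes were picked by their weight on the first component, their SD or their gap to the other rats, so their direction in rat 4 is a description.

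Rat 5 was lowest in 12 of 25 genes of excitation-contraction coupling, the signalling from surface membrane to reticulum, against 16.9% of all probe sets. Cacna1s, the calcium channel and voltage sensor, had 11.83, 11.95, 11.98, 12.06 and 11.50 in rats 1 to 5. Tmem38a, a cation channel of the reticulum, had 11.31, 11.40, 11.66, 11.58 and 10.998. Trdn, which anchors calsequestrin, averaged 11.03 ± 0.20 and was also lowest in rat 5. Solute carriers were lowest in rat 5 in 72 of 300 cases. The 4 named genes lowest below the other rats in rat 5 were Tmem117 (4.59), Kcnj11 (4.61), Tnfrsf12a (5.98) and Ostc (7.30), and all 4 were above background over the 5 arrays. Ostc, a subunit of the complex that glycosylates new proteins, had 8.79, 8.79, 8.74 and 8.77 in rats 1 to 4, so rat 5 lay 2.81-fold below the highest. Gja1, the gap junction protein connexin 43, took the other direction, with 7.22, 7.07, 7.23, 7.06 and 8.63.

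**Figure D5:**
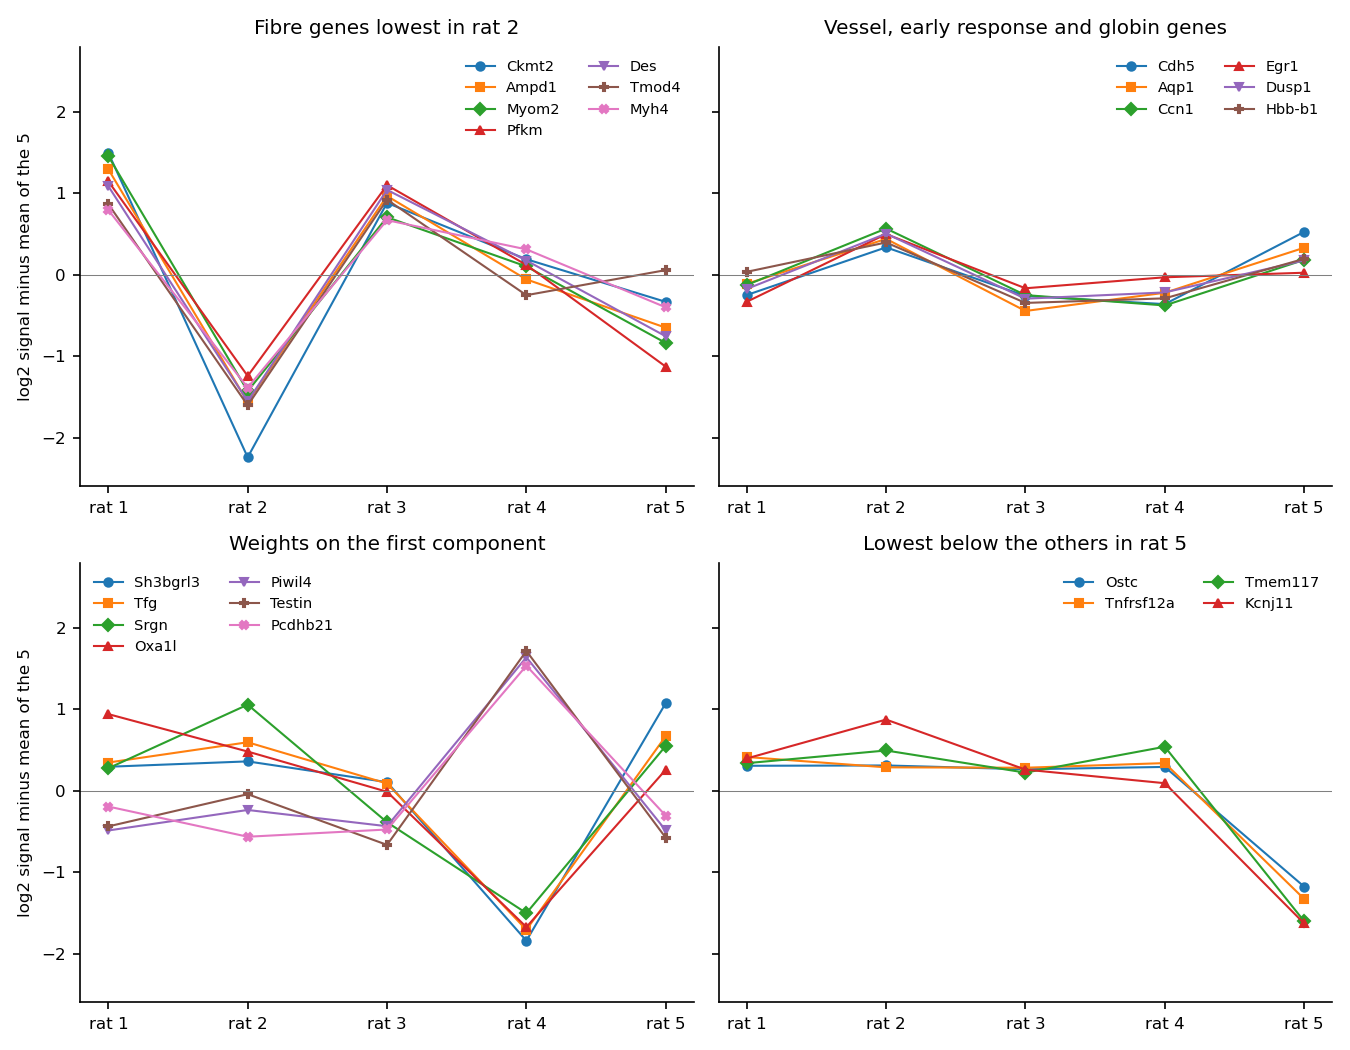
Log2 signal minus the gene's mean of the 5 arrays (vertical axis) by rat (horizontal axis) for 4 sets of genes; lines join values of 1 gene and imply no order of the rats. The fibre genes shown dip in rat 2, first-component genes part in rat 4, and the last set dips in rat 5. The vessel, early response and globin genes shown are raised in rat 2 and, apart from Egr1 near its mean, in rat 5.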

How the data were processed

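RNA of femoral muscle from 10 rats was hybridised to 10 Clariom S Rat arrays after 3′ IVT amplification, and the 5 arrays of 48 h were used. The authors normalized all 10 arrays together by RMA in Transcriptome Analysis Console 4.0 (build rn6, per the submitters' processing notes) and deposited log2 signals, so the 0 h arrays entered these values only through that shared step, which gives the arrays nearly the same distribution. With 5 arrays, their number sets how precise the values are.

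Of 24834 probe sets, 1552 RG1, 63 ERCC and 31 AFFX controls were left out, and the 23 BkGr probe sets among the AFFX controls gave the background. A symbol was known for 15049 of 23188 gene probe sets, none had several and 8139 stayed unnamed. All 15049 matched the GRCr8 gene table. Of the 10 mitochondrial probe sets 7 were named from the study's annotation. A list counts each gene by its probe set with the highest mean.

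The value minus the array's background median minus 1 was fitted with an intercept in limma 3.58.1 (R 4.3.3, eBayes, 4 residual and 21.1 prior degrees of freedom, two-sided, Benjamini-Hochberg over 23188), after a check on simulated data. "Lowest" and "highest" counts and principal components are descriptions without a test. Alternatives were other margins and references for background, cyclic loess, quantile normalization and leaving out each array. The members and lists were chosen with earlier results of these data known. Named genes were the 30 highest, up to 4 per list (2 for lists of other tissues), the 12 largest and 12 smallest SDs (the latter from a mean of 8), the extreme weights on the first 2 components, the 4 farthest above and below on each array, and the genes of the RT-qPCR. Others are said to be chosen after their values were seen. The promoter of 1 further gene is not reported here.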

Additional observations from a re-analysis of the deposited data

Results flagged for a closer look

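Values of 1 array far from the other 4 were sought in 11 measures of the arrays, 48 list medians and 103 genes of the text, where chance alone sets apart about 1 in 20. The measure is the gap from the extreme array to its neighbour as a share of the whole range, with a limit of 0.71. It was passed by 1, 2 and 13 of them. Several of the genes had been named because 1 array stood apart, so their gaps are a description.

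Rat 4 was high in the lower quartile of all probe sets (4.28, gap 0.729), in Prm1 (8.05, 0.788), Piwil4 (4.90, 0.882), Testin (5.67, 0.739), Pcdhb21 (4.94, 0.823) and Or52n20 (5.81, 0.816). It was low in the median of the reference genes (8.45, 0.721) and in Tfg (6.87, 0.755).

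Rat 5 was low in Ostc (7.30, 0.969), Tnfrsf12a (5.98, 0.924), Tmem117 (4.59, 0.852) and Hsp90b1 (8.80, 0.736) and high in Gja1 (8.63, 0.887). Rat 2 was low in Tnnt3 (10.96, 0.746) and rat 1 in ND3 (11.77, 0.774). Rat 3 was high in the median of vascular smooth muscle and pericyte markers (7.81, 0.733), but not in its members: their median deviation was -0.03 in rat 3, which was highest in 3 of the 19 and lowest in 5.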

How the results depend on the processing

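The counts against background depended on the line. Above and near background stood 12014 and 5940 probe sets. With a fold of 4 they were 6363 and 12236, with the background probe set of 16 GC bases, chosen after seeing the data, 6824 and 11322, and with the highest background probe set and no margin 330 and 22303. A fold of 1.5 gave 14618 and 3443. Loess, quantile normalization, another moderation and the rule that all 5 arrays pass moved neither count by over 1.5 times, and leaving out 1 array gave 11375 to 11973 and 5374 to 5795.

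Among probe sets with a symbol, the highest 100 shared 60 with the main 100. The share of the first component was 33.8% after quantile normalization, 34.1% for probe sets above background, 30.1% with each probe set divided by its SD and 40.3% to 43.4% with 1 array left out, when 3 components exist. The median SD was 0.298 as a scaled median absolute deviation and 0.342 to 0.369 with 1 array left out.

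Of 48 lists, 35 exceeded the share of all probe sets above background, and 33 to 35 did with 1 array left out. Of 721 alternative values for 103 genes, after loess, quantile normalization or leaving out 1 array, 709 kept their call and none reversed. The other background lines, which moved the counts most, were not among these settings, so the calls of single genes were not compared under them. Of the calls that were lost, 3 were of Cd4, 3 of Rap2c and 2 of Testin. Of 66 alternative counts of list members on 1 array, 5 moved by over 1.5 times: ribosomal genes lowest in rat 4 were 49 as deposited, 29 after loess and 30 after quantile normalization, endothelial markers lowest in rat 4 were 15, 9 and 9, and endothelial markers highest in rat 2 were 12, and 19 without rat 5. The causes were not tested.

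No paired analysis was possible because the arrays form 1 group and no groups were compared. Signals near background, and those near the top of the scale, limit what the spread between arrays can show.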
